A study of Mus musculus with 3 samples.

Results

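The genes described here are 10 genes of the myofibroblast and of TGF-beta driven fibrosis: Acta2, Tagln, Fn1, Postn, Pdgfra, Pdgfrb, Tgfb1, Tgfb2, Tgfb3 and Tgfbr2. The choice was by name, with no measured value in the rule, but was made with earlier results of these data known. The genes were found on the arrays through the RefSeq accession of each probe. All 10 were found among the 20546 genes named on the arrays, by 12 probes in all, and each of the 12 probes was well above background on all 3 arrays. RNA was compared from 3 kinds of tissue of female mice, each hybridised to 1 single-colour Agilent array. The SiO2-3TF-3C spleen was given silica (SiO2) together with 3TF-3C, a name the labels leave unexplained. The mouse liver was normal liver, named in the labels as the positive control, and the SiO2 spleen received silica without 3TF-3C and is the control of the series. Both kinds of spleen were collected on day 82, and both carry the silica treatment. The sources used here give no strain, age, dose or route. The series design also names PBS-treated spleens, which are not analysed here, so what silica itself did to these genes is not compared.

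Myofibroblasts are the contractile cells that lay down scar matrix, and they are known to arise from fibroblasts, pericytes and, in liver, stellate cells. TGF-beta is secreted in a latent form, is released by integrins and proteases, and binds a receptor pair of which TGFBR2 is the part that captures the ligand and activates its partner TGFBR1. The receptor pair phosphorylates SMAD2 and SMAD3, and the smooth muscle genes Acta2 and Tagln and matrix genes such as Fn1 are among those known to respond.

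Per the series design 5 samples were pooled for each group, without a word on whether this covers the liver. With 1 array per group and no replicates, no test between groups can be given, and genes are described by a rule of size, at least 2-fold. A level is the log2 signal of a probe minus the 75th percentile of its array, which was an intensity of 515 in the SiO2-3TF-3C spleen, 390 in liver and 569 in the SiO2 spleen. Levels are compared between arrays for the same probe and never between probes. After ± stands the technical error of a log2 difference as the scanner software estimates it, without any spread between mice. It is the error of a single spot, not made smaller where a probe has repeated spots. A difference within it may still exceed the scatter of repeated spots. The arrays share 1 slide, in 3 positions. In RNA from whole tissue, fewer cells of a type and less RNA per cell cannot be told apart. The tissue labels were checked against marker genes. The signals of 10 hepatocyte markers, taken on a linear scale with the array's 75th percentile as 1, summed to 241 in the SiO2-3TF-3C spleen, 590 in liver and 1.48 in the SiO2 spleen. Sums of this kind, here and below, lean on the brightest probes of a list. The liver array also carried spleen genes. The 3 regulators of spleen formation Tlx1, Nkx2-5 and Nkx2-3 and the 4 B cell genes Ms4a1, Cd79a, Cd79b and Cr2, chosen with their values known, were well above background in liver, where they summed to 1.12 and 43.1, against 2.80 and 109.8 in the SiO2 spleen. Every comparison with liver below rests on that array, and the part of spleen RNA in those results was not tested.

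Against the SiO2 spleen, 0 of the 10 genes in the SiO2-3TF-3C spleen were higher by 2-fold or more and 0 were lower by that much. Each gene is counted by its brightest probe, and a dimmer probe of Tgfb2 did pass 2-fold downward, at -1.35 ± 0.26. Over all 17640 genes measured, 5.24% were at least 2-fold higher and 1.39% at least 2-fold lower, so a count of 0 among 10 lies near the background. Fn1 was higher, by 0.60 ± 0.20 on the log2 scale, and the other 9 genes were lower, by amounts between -0.66 and -0.10. The median over the 10 genes was -0.26, beside -0.15 over all genes. For 6 of the 10 genes the difference exceeded its technical error, as it did for 59.7% of all 16783 genes well above background on both arrays, and for Acta2, Pdgfra, Tgfb3 and Tgfbr2 it did not. Hepatocyte markers moved far more between the same arrays, with 10 of 10 past 2-fold upward and a median of 8.17.

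The contractile genes come first. Acta2 encodes smooth muscle actin, the usual marker of the myofibroblast. It had a level of 1.51 in the SiO2-3TF-3C spleen, 0.62 in liver and 1.70 in the SiO2 spleen. These are intensities of 1466, 599 and 1850 before scaling, in the same order. The array carries 10 spots of the Acta2 probe, and in the SiO2-3TF-3C spleen they lay between 1.37 and 1.73, with a median of 1.50, against 1.60 to 1.77, with a median of 1.71, in the SiO2 spleen. The spots of both spleen arrays overlapped, and the difference of -0.19 ± 0.20 was within the technical error of a single spot. The repeated spots scattered less, with standard deviations of 0.102 in the SiO2-3TF-3C spleen and 0.055 in the SiO2 spleen. The liver spots lay between 0.46 and 0.94, below all spots of both spleen arrays; among probes with 9 or 10 spots, 45.6% were separated this way from the SiO2 spleen and 32.9% from the SiO2-3TF-3C spleen. Tagln encodes transgelin, an actin-binding protein of smooth muscle. Its level was 3.38 in the SiO2-3TF-3C spleen, 2.46 in liver and 3.82 in the SiO2 spleen. As for Acta2, the level of the SiO2-3TF-3C spleen was intermediate, at -0.45 ± 0.20 from the SiO2 spleen and 0.92 ± 0.20 from liver.

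**Figure D1:**
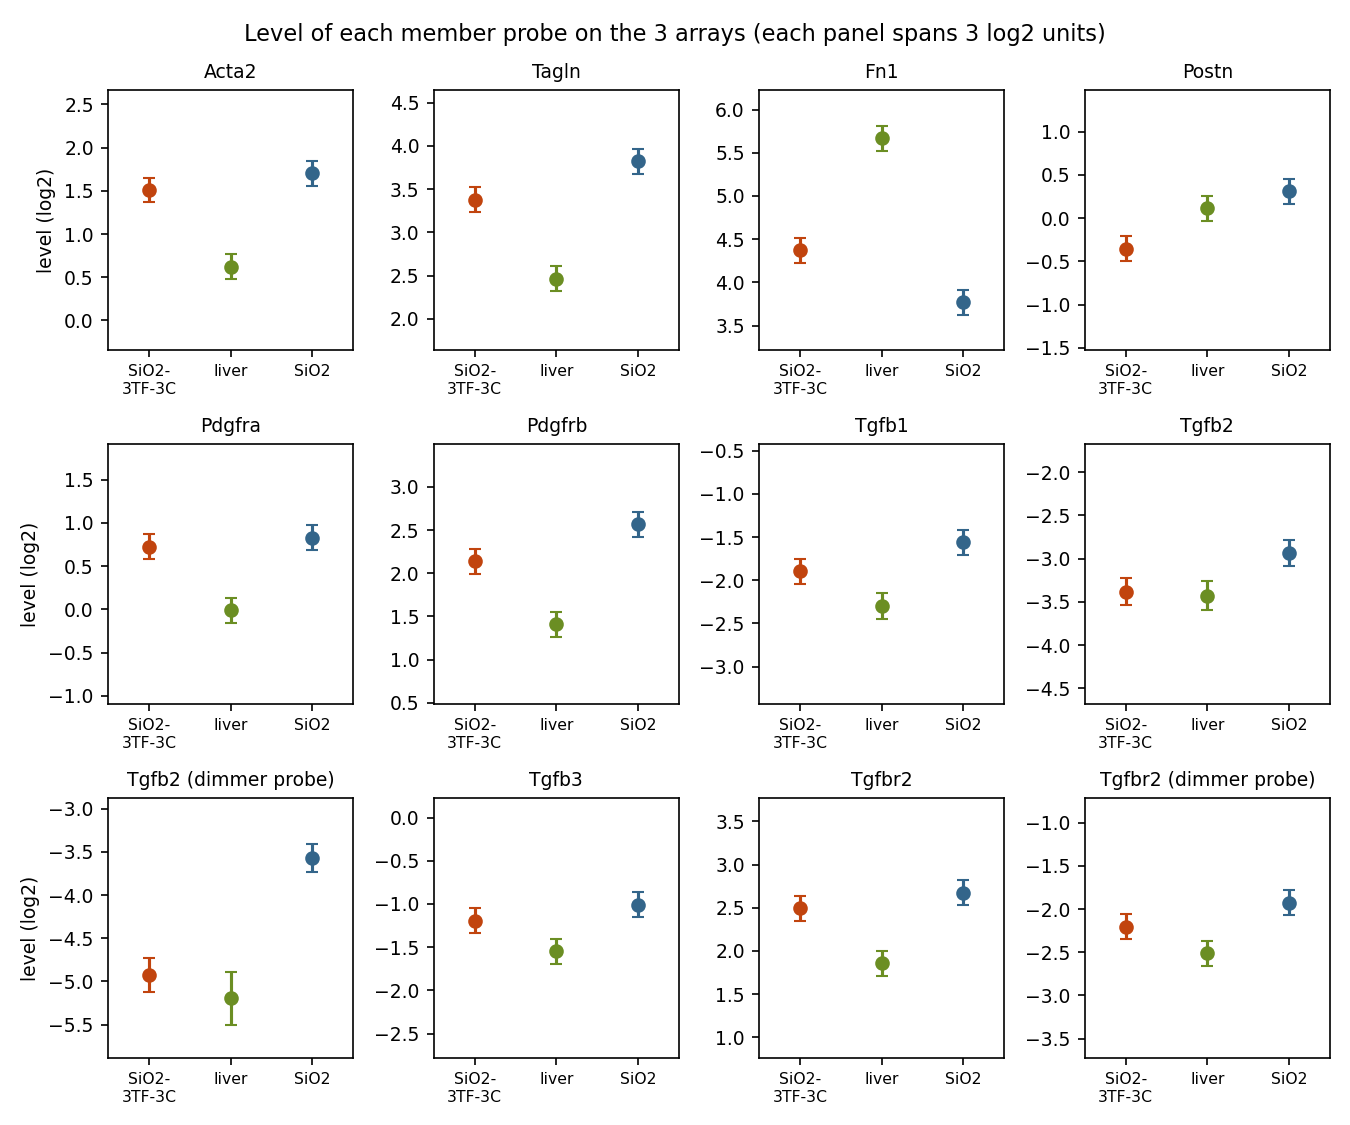
Level of each of the 12 probes of the 10 genes on the 3 arrays, as log2 signal minus the 75th percentile of the array, with bars for the scanner software's technical error of each level. Each panel spans 3 log2 units around its own values, so heights are not compared between panels; Fn1 is highest in liver at 5.67, Postn is lowest in the SiO2-3TF-3C spleen at -0.35, and the other 8 genes are highest in the SiO2 spleen and lowest in liver.

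Acta2 and Tagln are known targets of serum response factor (SRF), which binds the CArG box, a run of 6 bases of A or T between CC and GG. Acta2 is known for proximal CArG elements that carry a G or C inside this run. The 250 bases before the transcript start are shown for Acta2 and, as examples, for 2 of the 3 genes of the contractile list that passed 2-fold downward in liver and hold an intact box, the myosin light chain gene Myl9 and Srf itself. The other is the calponin gene Cnn2, at -1.30. The sequences are from RefSeq on GRCm38.p6, whose promoters matched 6 of the 10 genes (Acta2, Postn, Pdgfra, Tgfb1, Tgfb2 and Tgfbr2). Each reads 5′ to 3′ on the gene's own strand. Capitals mark CArG elements with at most 1 base of the run other than A or T, CAGAC (the Smad box) and CATTCC (the MCAT motif), searched on both strands, and no marked stretches overlap.
Acta2 promoter, chr19:34255374-34255623, minus strand: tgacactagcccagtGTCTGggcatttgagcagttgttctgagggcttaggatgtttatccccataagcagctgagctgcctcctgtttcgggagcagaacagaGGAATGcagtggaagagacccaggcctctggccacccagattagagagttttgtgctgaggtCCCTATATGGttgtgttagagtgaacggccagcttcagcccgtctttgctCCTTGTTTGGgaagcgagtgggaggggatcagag
Myl9 promoter, chr2:156775214-156775463, plus strand: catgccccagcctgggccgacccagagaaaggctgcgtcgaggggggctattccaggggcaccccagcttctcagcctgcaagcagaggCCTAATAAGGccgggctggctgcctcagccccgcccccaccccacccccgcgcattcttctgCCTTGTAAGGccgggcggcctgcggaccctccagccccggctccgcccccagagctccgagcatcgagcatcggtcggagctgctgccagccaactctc
Srf promoter, chr17:46556163-46556412, minus strand: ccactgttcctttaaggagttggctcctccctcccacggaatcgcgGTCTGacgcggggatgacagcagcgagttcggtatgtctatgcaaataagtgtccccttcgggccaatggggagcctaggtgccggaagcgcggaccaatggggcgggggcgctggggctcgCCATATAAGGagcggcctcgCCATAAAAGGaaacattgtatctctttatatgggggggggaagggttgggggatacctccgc
In Acta2 the CArG elements stand at -84 to -75 and -34 to -25 from the start, each with 1 base of the run other than A or T. The MCAT motif lies at -146 to -141 and the Smad box at -235 to -231, both on the opposite strand. In Myl9 the intact box is at -161 to -152, and Srf has intact boxes at -82 to -73 and -62 to -53. An intact CArG box is in 1.47% of the 32851 promoters of the table, and an element with at most 1 other base, a search added after the sequences were seen, is in 8.59%. Of the 18 contractile genes matched, 4 had an intact box (Myl9, Vcl, Srf and Cnn2), counted per gene and not per promoter. Of the 6 matched fibrosis genes 0 had an intact box. An element with at most 1 other base was in 2 of them, Acta2 and Tgfbr2, where it stands at -73 to -64. The Smad box, at 42.2% of all promoters, was in 5 of the 7 promoters that the table holds for these 6 genes; that of Tgfb1 and 1 of the pair of Postn had none. The MCAT motif was in 12.6% of all promoters. A match of letters is a description and shows no binding.

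Around Acta2 and Tagln, the other genes of the contractile apparatus were described from a list of 21 genes, of which 20 could be measured and Lmod1 was not well above background on any array. Between the spleens 0 of 20 were at least 2-fold higher and 0 at least 2-fold lower, with a median log2 difference of -0.37. The largest differences were those of Synpo2, an actin-bundling protein, at -0.74, the SRF coactivator Mrtfa at -0.66, Srf at -0.64 and the calponin gene Cnn1 at -0.63. Cnn1 had a level of -1.92 in the SiO2-3TF-3C spleen, -2.29 in liver and -1.28 in the SiO2 spleen, and Synpo2 had -0.19, -1.44 and 0.54 in the same order. In liver 11 of the 20 were lower by 2-fold or more than in the SiO2 spleen and 1 was at least 2-fold higher, with a median of -1.05. Over all genes in this comparison 17.0% were at least 2-fold lower and 15.4% at least 2-fold higher. These shares, and those given above for the spleens, are the background for the counts of every list below. Synpo2 was at -1.99 and Myl9 at -1.68, and the member higher in liver was the caldesmon gene Cald1 at 1.73. Markers of skeletal muscle, which share the actin and myosin machinery, were lower as well in the SiO2-3TF-3C spleen. There 3 of 6 passed 2-fold downward, including Myl1 at -1.85, beside 1.39% of all genes. Another of the 3, Myh4, was not well above background there, so its -2.05 is a bound. In liver 3 of 6 were likewise at least 2-fold lower than in the SiO2 spleen, beside 17.0% of all genes. The signals of the 6 markers summed to 0.274 in the SiO2-3TF-3C spleen, 0.309 in liver and 0.614 in the SiO2 spleen. Their part in the contractile values was not tested.

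The matrix genes Fn1 and Postn had another order of levels than the other 8 genes. Fn1 encodes fibronectin, which fibroblasts deposit as fibrils and hepatocytes secrete into plasma. Its level was 4.37 in the SiO2-3TF-3C spleen, 5.67 in liver and 3.77 in the SiO2 spleen, or intensities of 10660, 19834 and 7763 before scaling. Fn1 was the only one of the 10 genes with its highest level in liver, and the SiO2-3TF-3C spleen stood between the other arrays. The signal was 1.52-fold that of the SiO2 spleen in the SiO2-3TF-3C spleen, a difference that 8.37% of all genes reached or passed, and 3.73-fold higher in liver, where 8.20% did. Between the SiO2-3TF-3C spleen and liver the difference was -1.30 ± 0.20. Hepatocyte markers were far higher in both arrays on which Fn1 was higher, and their part in the Fn1 values was not tested. Postn encodes periostin, a matrix protein of activated fibroblasts. Its level was -0.35 in the SiO2-3TF-3C spleen, 0.12 in liver and 0.31 in the SiO2 spleen. Postn was lowest in the SiO2-3TF-3C spleen, at -0.66 ± 0.20 from the SiO2 spleen and -0.47 ± 0.20 from liver, and 6.09% of all genes were as low or lower in the first of these comparisons. Liver and the SiO2 spleen differed for Postn by -0.19 ± 0.20, within the technical error.

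Of 25 other fibroblast and matrix genes 23 were measured, and Tnc and Cthrc1 were not well above background on any array. Between the spleens 0 were at least 2-fold higher and 0 at least 2-fold lower, with a median of -0.29 and values between -0.63 and 0.32. The fibroblast and leukocyte gene S100a4 was at -0.63, the proteoglycan genes Lum and Bgn were at -0.59 and -0.54, and Sparc, a collagen-binding protein, was at -0.54. In liver 8 of 23 were lower by 2-fold or more than in the SiO2 spleen and 2 were higher by that much, with a median of -0.68. Over all genes the shares were 17.0% and 15.4%. The members higher in liver were the proteoglycan genes Dcn at 1.88 and Lum at 1.14, while Dpt, which binds collagen fibrils, was at -1.63. Of 9 genes that bind or assemble fibronectin, 1 was higher by 2-fold or more in the SiO2-3TF-3C spleen and 0 were at least 2-fold lower. This was the syndecan Sdc2, at 1.39, with levels of -0.17 in the SiO2-3TF-3C spleen, 2.55 in liver and -1.56 in the SiO2 spleen. In liver Sdc2 was at 4.11, Sdc4 at 2.39 and the fibronectin receptor subunit Itga5 at 1.79, and the integrin subunit Itga4 at -1.31 was the 1 of 9 at least 2-fold lower.

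The PDGF receptors mark fibroblasts and pericytes and carry the signal for their growth and migration. Pdgfra had a level of 0.72 in the SiO2-3TF-3C spleen, -0.01 in liver and 0.83 in the SiO2 spleen. Its 10 spots lay between 0.66 and 0.78, with a median of 0.72, in the SiO2-3TF-3C spleen, against 0.76 to 0.92, with a median of 0.83, in the SiO2 spleen, so that the spleen arrays overlapped. The difference of -0.10 ± 0.20 was the smallest of the 10. The liver spots, between -0.26 and 0.11, lay below both. Among probes with 9 or 10 spots, 45.6% were separated this way from the SiO2 spleen and 32.9% from the SiO2-3TF-3C spleen. Pdgfrb had a level of 2.14 in the SiO2-3TF-3C spleen, 1.41 in liver and 2.57 in the SiO2 spleen. It differed by -0.43 ± 0.20 between the spleens and, unlike Pdgfra, passed 2-fold in liver, at -1.16 ± 0.20. Of 6 genes of PDGF ligands and the proteases that process them, 0 were at least 2-fold apart between the spleens. The largest differences were those of the protease Plat at 0.65, the ligands Pdgfb at -0.48 and Pdgfc at 0.40, and Pdgfa at -0.27. In liver Furin, a protease that cuts many growth factor precursors, was at 2.12, Pdgfc at 1.83 and Pdgfb at -1.20 against the SiO2 spleen.

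Markers of pericytes and stellate cells, which also carry the PDGF receptor Pdgfrb, were set beside these values. Of 9 pericyte markers 0 were at least 2-fold apart between the spleens, with summed signals of 17.8 in the SiO2-3TF-3C spleen, 22.2 in liver and 23.2 in the SiO2 spleen. Most of each sum came from Mcam, with levels of 3.93, 4.33 and 4.33 in the same order, so the sums say little of the other markers. Between the spleens the regulator of G protein signalling Rgs5 was at 0.98 and the receptor Notch3 at -0.45. Of 9 markers of hepatic stellate cells 1 was higher by 2-fold or more in the SiO2-3TF-3C spleen, the lectin gene Colec11 at 2.79, and the extracellular matrix protein gene Ecm1 was at 0.23. The signals of the 9 stellate cell markers summed to 5.10 in the SiO2-3TF-3C spleen, 23.0 in liver and 4.23 in the SiO2 spleen. Most of each sum came from Ecm1, with levels of 1.59, 3.98 and 1.36 in the same order. In liver 6 of 9 were at least 2-fold higher than in the SiO2 spleen, beside 15.4% of all genes. Against the SiO2 spleen, 7 of these 9 markers had higher signals in liver, and Des at -0.68 and Gfap at -0.89 had lower ones. Of the 10 fibrosis genes 9 had lower signals there, where the median over all genes was -0.14. Of 7 mesothelial markers with a probe, 4 were measured between the spleens and 2 were at least 2-fold higher, Msln at 2.86 and Gpm6a at 1.02, while the transcription factor gene Wt1 was at -0.53. Summed over the 7 markers, the signal was 1.77 in the SiO2-3TF-3C spleen, 1.11 in liver and 2.01 in the SiO2 spleen. Most of each sum came from Wt1, with levels of 0.36, -0.77 and 0.88 in the same order. The order of the sums is therefore that of Wt1 and not of the list. Between the spleens 3 of the 4 measured markers had differences above 0 and 1 below, with a median of 0.86. For liver against the SiO2 spleen 5 of 6 lay above 0 and 1 below.

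The 3 TGF-beta ligands had their highest levels in the SiO2 spleen. Tgfb1, the ligand of leukocytes and platelets and the best known driver of fibrosis, had a level of -1.90 in the SiO2-3TF-3C spleen, -2.30 in liver and -1.56 in the SiO2 spleen. The 9 spots kept in the SiO2-3TF-3C spleen lay between -1.94 and -1.85, with a median of -1.90, and all lay below the 10 spots in the SiO2 spleen, which ran from -1.63 to -1.41 with a median of -1.57. Among 260 probes with 9 or 10 spots on both arrays, 23.8% had all spots lower in the same comparison, so such a gap is common. The difference was -0.34 ± 0.21. Tgfb3 had a level of -1.19 in the SiO2-3TF-3C spleen, -1.55 in liver and -1.01 in the SiO2 spleen. Its spots overlapped between all 3 arrays, with ranges of -1.33 to -1.02 in the SiO2-3TF-3C spleen, -1.74 to -1.16 in liver and -1.18 to -0.90 in the SiO2 spleen. The difference between the spleens was -0.18 ± 0.20.

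**Figure D2:**
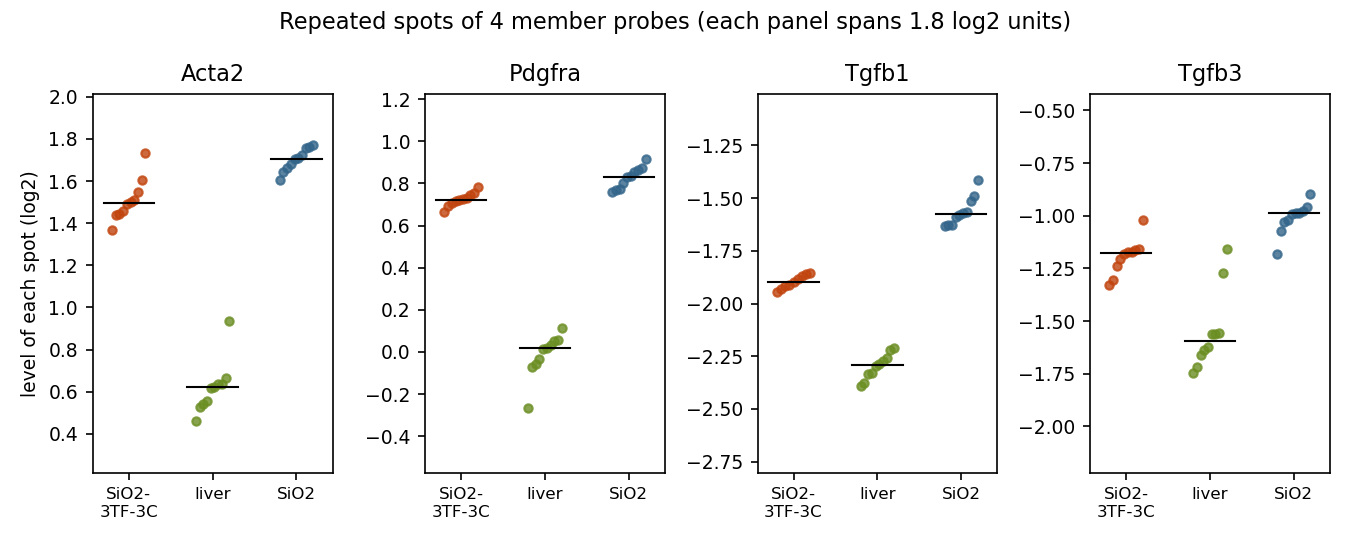
Level of each repeated spot (points) of the 4 probes printed 10 times on each array, with the median as a line, in log2 signal minus the 75th percentile of the array. The spots of Tgfb1 do not overlap between the spleen arrays, with -1.94 to -1.85 in the SiO2-3TF-3C spleen and -1.63 to -1.41 in the SiO2 spleen, whereas those of Acta2, Pdgfra and Tgfb3 do; spots of an array share its RNA and are not replicates of a tissue.

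Tgfb2 was dim and its 2 probes disagreed in size. The brighter probe had a level of -3.38 in the SiO2-3TF-3C spleen, -3.43 in liver and -2.93 in the SiO2 spleen, which are intensities of 49.4, 36.3 and 74.6. The other probe had intensities of 16.9, 10.6 and 47.8 in the same order. Both probes were highest in the SiO2 spleen, but the difference between the spleens was -0.45 ± 0.21 with the brighter probe and -1.35 ± 0.26 with the dimmer one. In liver against the SiO2 spleen they gave -0.50 ± 0.22 and -1.62 ± 0.34. In both comparisons Tgfb2 passes 2-fold by the dimmer probe and not by the brighter one. Tgfbr2 encodes the receptor that binds the ligands. Its brighter probe had a level of 2.50 in the SiO2-3TF-3C spleen, 1.86 in liver and 2.67 in the SiO2 spleen, and differed by -0.18 ± 0.20 between the spleens and -0.82 ± 0.20 between liver and the SiO2 spleen. Its dimmer probe gave -0.28 ± 0.21 and -0.58 ± 0.21, on the same side of 2-fold.

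Cells known to make Tgfb1 were checked as well. The 6 macrophage markers with a probe had 0 at least 2-fold apart between the spleens, with summed signals of 66.7 in the SiO2-3TF-3C spleen, 51.7 in liver and 73.6 in the SiO2 spleen. The 6 platelet and megakaryocyte markers likewise had 0 and summed to 23.2, 10.4 and 24.7 in the same order. The 5 T cell and regulatory T cell markers also had 0 at least 2-fold apart between the spleens and summed to 4.37, 4.71 and 6.27. Between the spleens 4 of the 5 lay below 0 and 1 above. Cd4 was at -0.59 and Foxp3, the regulator of regulatory T cells, at -0.58, while Ctla4 was at 0.32. Most of the liver sum came from Cd4. In the SiO2-3TF-3C spleen 4 of the 5 markers were higher than in liver and 1 was lower, with a median of 0.80. The 5 endothelial markers had 0 at least 2-fold apart between the spleens and sums of 9.18, 15.3 and 9.84. In liver 1 of them, Emcn at 1.35, was at least 2-fold higher than in the SiO2 spleen. The part of these cells in the Tgfb1 values was not tested.

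Around the ligands, 12 of 14 genes of TGF-beta latency and activation were measured, while the activating integrin subunits Itgb6 and Itgb8 were not well above background on any array. Between the spleens 0 of 12 were at least 2-fold apart, with a median of -0.05. The largest differences were those of the latent TGF-beta binding protein Ltbp2 at 0.57, the milieu molecule Nrros, which tethers latent TGF-beta on myeloid cells, at -0.52, Itgb1 at 0.38, and Lrrc32, the tether of regulatory T cells and platelets, at -0.30. Ltbp2 had a level of 1.13 in the SiO2-3TF-3C spleen, -0.84 in liver and 0.56 in the SiO2 spleen. Of 8 receptors and co-receptors 0 were at least 2-fold apart between the spleens (median -0.28). The furthest were the activin receptor Acvr1b at -0.50, the BMP receptors Bmpr2 at -0.50 and Acvr1 at -0.43, and Tgfbr1, the partner of Tgfbr2, at -0.33. In liver against the SiO2 spleen the activin receptor Acvr2a was at 1.28 and the co-receptor Tgfbr3 at -1.08.

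Of 8 Smads and their partners 1 was higher by 2-fold or more in the SiO2-3TF-3C spleen and 0 were at least 2-fold lower. This was Smad9, a Smad of BMP signalling, at 1.43, with levels of -4.49 in the SiO2-3TF-3C spleen, -1.73 in liver and -5.91 in the SiO2 spleen, the last near the dimmest signal counted as well above background there (-6.04). The common Smad4 was at -0.51 and Smad5 at -0.44. Of 11 measured inhibitors 0 were at least 2-fold apart between the spleens (median -0.27), and the pseudoreceptor Bambi was not well above background on any array. Smad7, the feedback inhibitor that TGF-beta itself induces, was at -0.74, with levels of 1.52 in the SiO2-3TF-3C spleen, 1.91 in liver and 2.26 in the SiO2 spleen. In liver the activin antagonist Fst was at 4.08, Dcn at 1.88 and Smad6 2.15-fold higher, against the SiO2 spleen.

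Of 15 measured target genes of TGF-beta 1 was higher by 2-fold or more in the SiO2-3TF-3C spleen and 0 were at least 2-fold lower, with a median of -0.19. The higher one was the metalloproteinase inhibitor Timp1 at 1.02, with levels of 1.42 in the SiO2-3TF-3C spleen, -1.11 in liver and 0.40 in the SiO2 spleen. Besides Smad7, the furthest in the other direction were the cell cycle inhibitor Cdkn1a at -0.70 and Nox4, an oxidase of myofibroblasts, at -0.60. In liver 6 of 15 were lower by 2-fold or more than in the SiO2 spleen and 1 was at least 2-fold higher (median -0.75). Over all genes the shares were 17.0% and 15.4%. Timp1 was at -1.51 there, the connective tissue growth factor gene Ccn2 at -1.47 and Cdkn2b at -1.47.

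**Figure D3:**
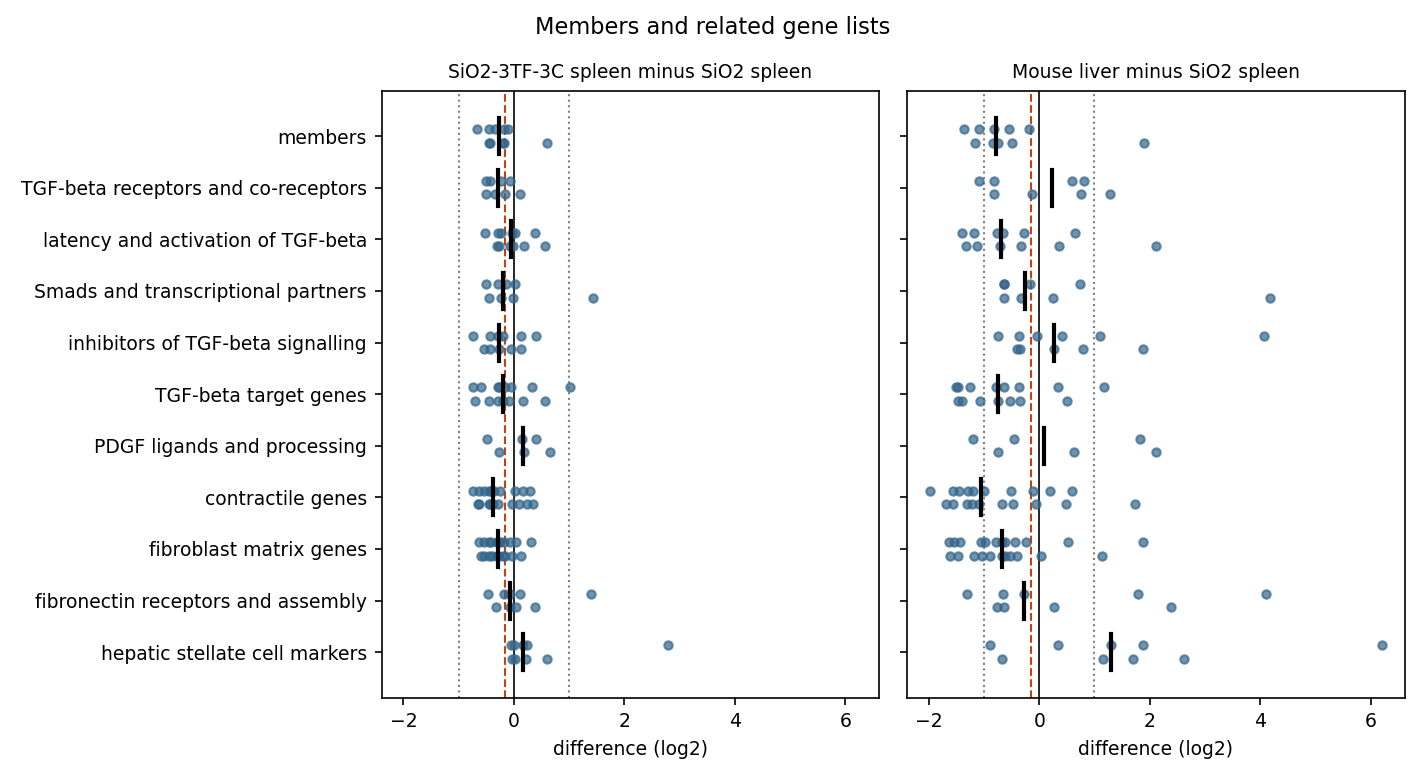
Log2 difference of each measured gene (points) in the 10 genes described here (top row, members) and in related lists, for the SiO2-3TF-3C spleen minus the SiO2 spleen (left) and liver minus the SiO2 spleen (right), with the list median as a black bar, the median of all genes as a dashed line and 2-fold as dotted lines. Between the spleens most points lie within 2-fold, and the 10 genes have a median of -0.26 beside -0.15 for all genes; in liver contractile genes have a median of -1.05 and stellate cell markers one of 1.30.

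Normal liver was set against the SiO2 spleen, on the array that also carried spleen genes. In liver 1 of the 10 genes was at least 2-fold higher, Fn1, and 3 were at least 2-fold lower, Acta2 (2.12-fold lower), Tagln (2.57-fold lower) and Pdgfrb (2.23-fold lower). Over all 17359 genes measured, 15.4% were at least 2-fold higher and 17.0% at least 2-fold lower, so 3 of 10 is not far from the background. The median over the 10 genes was -0.78, beside -0.14 over all genes. For 9 of the 10 genes the difference exceeded its technical error, beside 80.7% of all 16147 genes well above background on both arrays, and the exception was Postn. With the mean over its probes Tgfb2 passed 2-fold as well, at -1.06. Pdgfra at -0.84, Tgfbr2 at -0.82, Tgfb1 at -0.74, Tgfb3 at -0.54 and Tgfb2 at -0.50 were lower in liver by less than 2-fold. The median of the 4 B cell genes in the same comparison was -1.25.

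The SiO2-3TF-3C spleen was then set against liver, its positive control. Of the 10 genes 0 were higher by 2-fold or more in the SiO2-3TF-3C spleen and 1 was at least 2-fold lower, Fn1, where over all 17213 genes 10.7% were at least 2-fold higher and 15.9% at least 2-fold lower. The median was 0.52, beside -0.03 over all genes. Tagln at 0.92 and Acta2 at 0.89 were the highest, both just inside 2-fold, followed by Pdgfra at 0.74, Pdgfrb at 0.73 and Tgfbr2 at 0.64. Tgfb1 was at 0.40 ± 0.21, Tgfb3 at 0.36 ± 0.21 and Tgfb2 at 0.05 ± 0.23. The call of Fn1 ended with quantile normalization, at -0.997, and in the authors' deposited table, at -0.97. With quantile normalization Tagln, and in the authors' deposited table both Acta2 and Tagln, were higher by 2-fold or more in the SiO2-3TF-3C spleen.

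**Figure D4:**
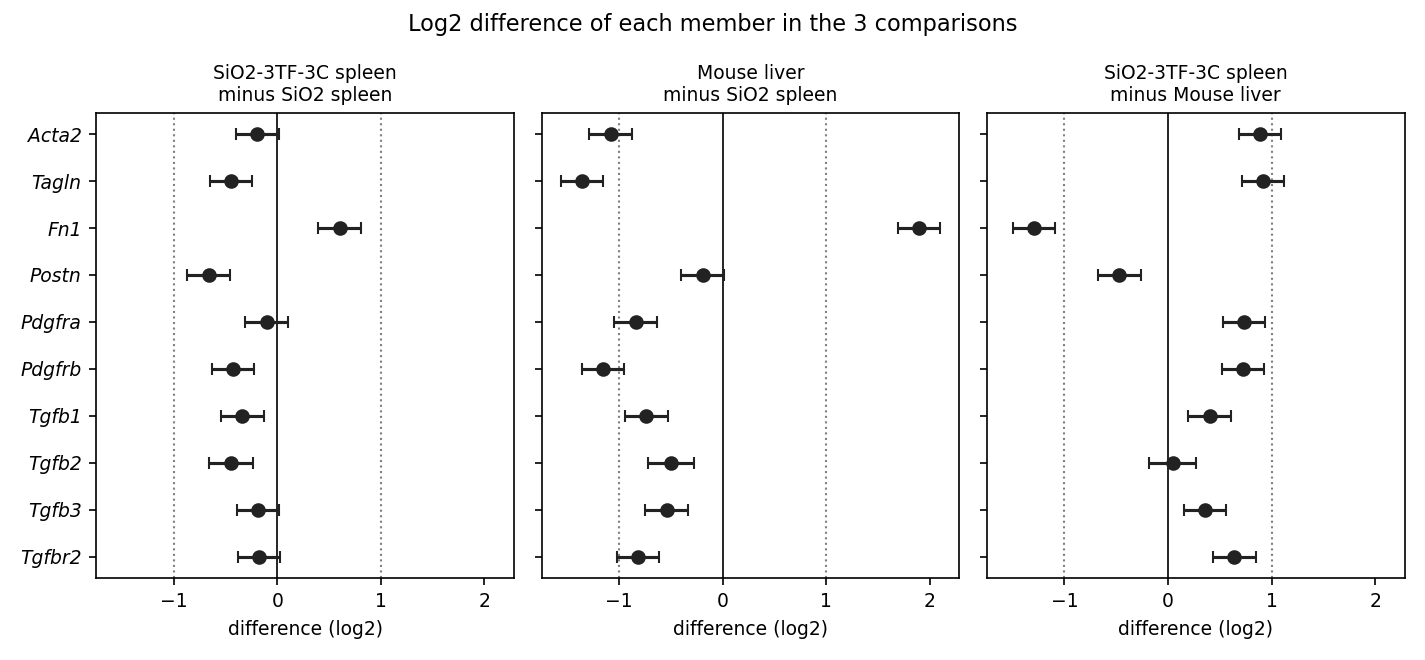
Log2 difference of each of the 10 genes in the 3 comparisons, with bars for the technical error and dotted lines at 2-fold. Between the spleens 0 of 10 points lie past 2-fold, in liver against the SiO2 spleen Fn1 lies at 1.90 and Acta2, Tagln and Pdgfrb lie below -1, and between the SiO2-3TF-3C spleen and liver Fn1 lies at -1.30; the first and second panels share the SiO2 spleen array.

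The 3 comparisons share arrays, so their values are not independent. In order of level, 8 of the 10 genes were highest in the SiO2 spleen, between in the SiO2-3TF-3C spleen and lowest in liver, an order that 35.0% of the 16087 genes well above background on every array had. For Acta2, Pdgfra, Tgfb3 and Tgfbr2 the spleens did not differ beyond the technical error of a single spot, and for Tgfb2 the SiO2-3TF-3C spleen and liver did not. Among 102 genes of the related lists, those whose differences from the SiO2 spleen lay nearest to those of Acta2 over the 3 arrays were Tgfbi, Tgfbr3 and Thy1, at Euclidean distances of 0.035, 0.041 and 0.044. Nearest to Fn1 were Pdgfc, Dcn and Furin, at larger distances of 0.218, 0.475 and 0.479.

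**Figure D5:**
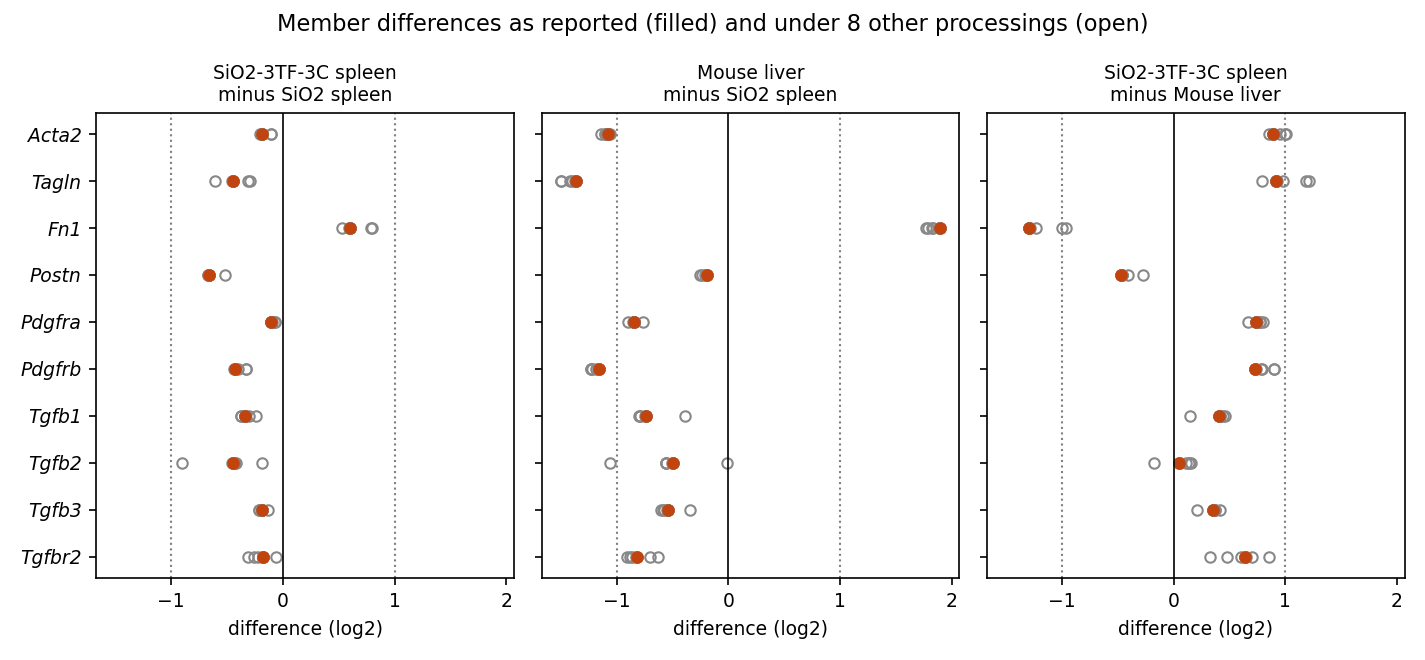
Log2 difference of each of the 10 genes in the 3 comparisons as reported (filled points) and under the 8 other processings (open points), with dotted lines at 2-fold. Between the spleens Fn1 stays between 0.53 and 0.80, and Tgfb2 spreads most, from -0.90 to -0.19.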

How the data were processed

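RNA of 3 tissue samples was measured on 1 single-colour (Cy3) Agilent array each. A blood RNA kit with globin depletion and linear amplification to Cy3 cRNA was used, per the labels' protocols, which are written for blood and name no change for spleen or liver. The authors deposited scanner files that hold the fluorescence intensity of each spot after background subtraction and detrending, not scaled between arrays. Per the file headers, Feature Extraction 11.0.1.1 was used on array design 026655 with build mm9, while version 9.1 of Agilent Feature Extraction is named per the submitters' processing notes. The authors' deposited series table holds log2 values with equal maxima (16.58) and medians of 5.91 in each column; their normalization is not stated there or in the labels. It lists 11 of the 12 probes.

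Control spots and spots flagged as outliers (283, 469 and 182 of 43020 in the SiO2-3TF-3C spleen, liver and the SiO2 spleen) were left out, log2 signals of repeated spots were averaged and the 75th percentile was subtracted. Of 39112 probes 27038 (69.1%) were named through RefSeq accessions (GRCm38.p6), and the brightest probe stands for a gene. A probe was measured where at least 50% of its spots were well above background, which held for 81.3%, 77.2% and 79.9% of spots, in the same order, and 0 spots were saturated. The number of arrays limits the precision. A gene measured on only 1 side enters counts and medians as a lower bound of its difference. Lists were described by counts and medians, with no test. A marker of the stellate cell list and a B cell gene are not reported here and were left out of their lists. The related genes named are those with the largest differences measured on both sides, between the spleens (up to 4 per list) and between liver and the SiO2 spleen (up to 3). The 10 genes, the lists and these rules were chosen with earlier results of these data known. Alternatives were normexp (limma 3.58.1, offset 50) on the median spot and background signals, in place of the planned mean signal, which is not used here, quantile or median scaling, the deposited table, the mean over probes, other filters on dim probes and keeping flagged spots. Gene steps were tested on simulated data. Python 3.11.15, pandas 2.3.3 and R 4.3.3 were used.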

Additional observations from a re-analysis of the deposited data

How the results depend on the processing

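Between the spleens the count of the 10 genes at least 2-fold apart stayed 0 in both directions under all 8 alternatives. By its dimmer probe alone, Tgfb2 was past 2-fold there, at -1.35 in the main processing. In liver against the SiO2 spleen the counts stayed 1 higher and 3 lower, except that the mean over all probes gave 4 lower, with Tgfb2 at -1.06; normexp put Tgfb2 at -0.012 there. In the SiO2-3TF-3C spleen against liver, 0 higher and 1 lower as reported became 1 higher and 0 lower with quantile normalization and 2 higher and 0 lower in the authors' deposited table; the cause was not tested. Medians over the 10 genes moved by less than the technical error under every alternative. Of the single genes' values 13 moved by more than it and 227 did not, and 1 changed sign, that of Tgfb2 between the SiO2-3TF-3C spleen and liver with normexp, at -0.18 against 0.05. Tgfb2 ranged from -0.90 to -0.19 between the spleens, where the mean over its probes gave the lowest value and normexp the highest. In the deposited table Tgfbr2 rests on its dimmer probe. Over all genes, those lower by 2-fold or more between the spleens numbered 245 of 17640 as reported, 40 with normexp, 156 of 12786 in the deposited table, 161 with only genes above background on every array and 555 with no filter, and those higher 924, or 592 with normexp. In liver against the SiO2 spleen 2670 of 17359 were higher, or 1774 of 12685 in the deposited table, and 2946 lower, or 1633 with normexp. Between the SiO2-3TF-3C spleen and liver 1848 were higher and 2729 lower of 17213, or 861 higher with normexp and 1702 of 12587 lower in the deposited table, and quantile normalization moved the median of all genes to 0.09 there, against -0.03. No paired analysis was possible because each group has 1 array. Dim probes limit Tgfb2 most.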
